A study of Mus musculus with 18 samples.

Results

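A stable 4T1 line carrying a lentiviral vector for Wisp1 was grown on collagen type I or on plastic, and the 3 libraries from collagen were set against the 3 from plastic. These 6 of the series' 18 libraries were chosen by their labels alone. 4T1 is a mammary tumour line of BALB/c mice, and Wisp1 (CCN4) encodes a matricellular CCN protein that cells secrete. Cells of both groups had been transduced with the Wisp1 vector and selected with puromycin, and were grown in RPMI with 10% fetal calf serum and antibiotics until RNA was taken from subconfluent dishes. The plastic group (n = 3) grew on tissue culture-treated dishes and the collagen group (n = 3) on plastic dishes coated with collagen type I. The matching empty vector (EV) line, also puromycin selected and grown on both substrates (n = 3 each), was used as the reference for the substrate effect. Parental 4T1 cells with and without TGFb1 make up the other 6 libraries. The replicates were cultures of 1 stable line, so p-values measure how these cultures vary, not how separately made lines would.

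Collagen type I is the main fibrillar collagen of tumour stroma. Cells bind it through integrins and discoidin domain receptors, and adhesion signals through focal adhesions and actin to transcriptional regulators, among them YAP and TAZ, coactivators that act with TEAD factors and respond to cell shape and substrate stiffness. Adherent cells answer their matrix with proteases that cut it, such as matrix metalloproteinases and the plasminogen activator system, and with matrix proteins of their own, such as laminins.

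Gene counts per library were 37552858 to 59568523 on plastic and 50034372 to 81029315 on collagen. Values are CPM, read counts scaled to 1 common library size after TMM normalization, given in the order of replicates 1 to 3, and fold changes are collagen against plastic from edgeR's quasi-likelihood test, with p-values adjusted by Benjamini-Hochberg over all genes tested and a call at adjusted p under 0.05. The labels' sample codes belong to 1 numbered series for all plastic libraries of the stable lines and to another for all collagen libraries, so substrate and sample series cannot be told apart in any result below. Wisp1 itself was at 885, 891 and 1039.6 CPM on plastic and 1087, 1120.3 and 1057 CPM on collagen in the Wisp1 line, against means of 50.7 ± 17.5 CPM on plastic and 15.3 ± 1.00 CPM on collagen in the EV line (SD, n = 3 each). Every library labelled Wisp1 thus lay above every EV library. Reads from the vector and from the endogenous gene were not separable. Of 9 markers of mammary epithelium, 2 were higher and 1 lower on collagen, and their summed level was 3464 to 3823 CPM on plastic and 3871 to 5011 CPM on collagen. The sum was led by the keratins Krt8, Krt18 and Krt7, which had higher means on collagen, as did Krt19 and Epcam. Cldn3, Cldn4 and Cldn7 had lower means on collagen without a call, for Cldn4 61.3 CPM against 90.5 CPM on plastic. Leukocyte markers summed to 10.0 to 15.9 CPM on plastic and 15.2 to 24.1 CPM on collagen, with Cd3e at 0 counts, and the endothelial and adipocyte lists did not exceed 0.549 CPM in any library.

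Growth on collagen was accompanied by many small changes. Of 13953 genes tested, 5641 (40.4%) were called, 2974 (21.3%) higher and 2667 (19.1%) lower on collagen, and the median change of all genes was 0.01 on the log2 scale. The median fold of the called genes was 1.24, and 400 (2.87%) changed at least 2-fold, 268 (1.92%) of them higher and 132 (0.946%) lower. The CPM ranges of the groups did not overlap for 3676 genes (26.3%) that lay higher on collagen and 3469 (24.9%) that lay lower. In these bulk libraries, fewer cells of a kind and less RNA per cell cannot be told apart. The first principal component of the 12 stable-line libraries held 68.0% of the variance and separated the substrates. Collagen replicate 1, the deepest of the 6 libraries, stood highest on the second component (11.5% of the variance), and without it 4657 genes were called. With all 18 libraries in the fit, which then shares its spread estimate with the parental cells, 2071 genes were called. GC content moved with the change: the median log2 change rose from −0.04 in the lowest of 10 equal bins of GC content to 0.15 in the highest, and the share called higher from 11.6% to 36.5%. Offsets smoothed over GC content, an alternative chosen after seeing the data, gave 2403 genes higher and 3089 lower, with 4642 of the calls shared and all of these in the same direction.

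**Figure D1:**
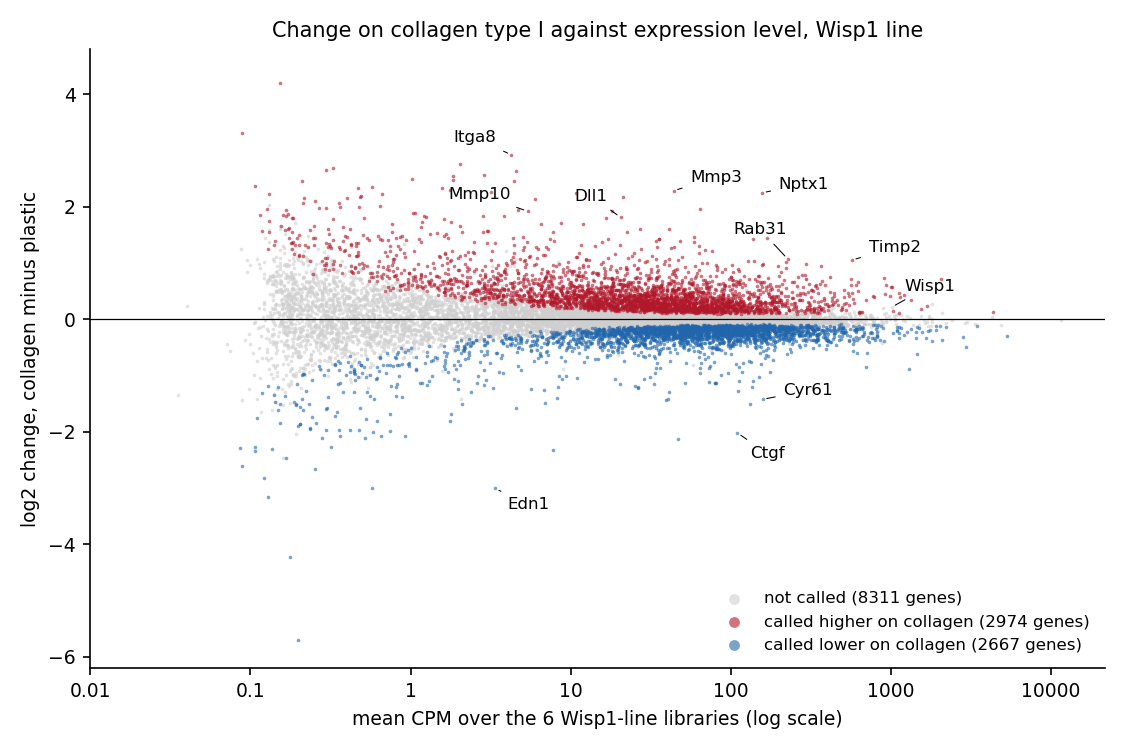
Each point is a gene, placed by its mean CPM over the 6 Wisp1-line libraries (log axis) and its log2 change, collagen minus plastic. The 2974 genes called higher are red, the 2667 called lower are blue and the rest are grey, and Edn1, Ctgf and Cyr61 lie lowest among the labelled genes while Itga8, Mmp3 and Nptx1 lie highest.

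The CCN relatives of Wisp1 did not move together. Ctgf (CCN2), a matricellular protein and a widely used readout of YAP and TAZ, was at 159, 158 and 214 CPM on plastic and 45.7, 52.1 and 32.9 CPM on collagen. All 3 collagen libraries lay below all 3 plastic libraries, and Ctgf fell 4.06-fold (log2 change −2.02 ± 0.22 SE, adjusted p = 8.84e-05). Cyr61 (CCN1), its close relative and another readout of YAP and TAZ, was at 219.7, 186 and 287 CPM on plastic and 75.5, 107 and 75.6 CPM on collagen. It fell 2.68-fold (log2 change −1.42 ± 0.26 SE, adjusted p = 0.00241), again with no overlap. Nov (CCN3) was scarce, at 0.653, 0.591 and 0.376 CPM on plastic and 3.50, 1.93 and 2.39 CPM on collagen. It rose 5.06-fold (log2 change 2.34 ± 0.30 SE, adjusted p = 4.99e-05). Wisp1 missed the threshold (1.16-fold, adjusted p = 0.375), although its collagen libraries lay above its plastic libraries, and it passed in a fit of the 6 Wisp1-line libraries alone (adjusted p = 0.0268). Of the 5 family members tested, 1 was called higher and 2 lower, and 2 were called higher without collagen replicate 2 or collagen replicate 3. The call gained there was Wisp2 (CCN5), with adjusted p = 0.0475 and 0.0157. Wisp2 was scarce, its groups overlapped, and it missed the threshold in the main fit (adjusted p = 0.0636).

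Targets of YAP and TAZ were more often lower than higher on collagen. Of 20 tested members of this list (23 in all; Foxf2, Igfbp3 and Rbms3 had too few counts), 11 fell and 4 rose, with a median log2 change of −0.26. Ankrd1, a nuclear ankyrin repeat protein induced by YAP, was at 223, 225 and 244 CPM on plastic and 130.3, 127 and 101 CPM on collagen. The collagen libraries all lay lower, and Ankrd1 fell 1.93-fold (log2 change −0.95 ± 0.08 SE, adjusted p = 3.63e-06). Gadd45b, a stress-inducible growth arrest gene, was at 55.7, 55.2 and 61.6 CPM on plastic and 21.9, 23.6 and 17.9 CPM on collagen and fell 2.72-fold (log2 change −1.44 ± 0.08 SE, adjusted p = 6.36e-08). Amotl2, which encodes an angiomotin that binds YAP, fell 1.67-fold (adjusted p = 0.000111), and the kinase gene Nuak2 fell 1.67-fold (adjusted p = 2.3e-05). In the other direction Asap1, an ARF GTPase-activating protein, rose 1.29-fold (adjusted p = 3.41e-05), a call that was not made with all 18 libraries (adjusted p = 0.0608). Across the 20 genes, plastic replicate 3 was the highest plastic library for 18, and collagen replicate 1 the lowest collagen library for 12. In the EV line 9 members fell and 6 rose. With all 18 libraries in the fit 9 fell and 0 rose, and with GC-corrected offsets 11 fell and 2 rose.

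Lower values on collagen were also seen for Edn1 and Adamts1. Edn1, the precursor of the vasoactive peptide endothelin, was at 6.19, 5.29 and 6.53 CPM on plastic and 0.720, 0.927 and 0.598 CPM on collagen. These levels rested on 237, 197 and 382 counts on plastic and 59, 47 and 30 on collagen. Edn1 fell 8.06-fold (log2 change −3.01 ± 0.15 SE, adjusted p = 1.25e-08), with no overlap. Adamts1, a secreted metalloproteinase that cleaves proteoglycans, was at 187, 179 and 219 CPM on plastic and 65.6, 78.7 and 60.3 CPM on collagen and fell 2.86-fold (log2 change −1.52 ± 0.18 SE, adjusted p = 0.000144). The actin and SRF list as a whole was split, with 4 of 19 tested members higher, 3 lower and a median log2 change of 0.00. The share called was 36.8%, near the 40.4% of all genes, of which 21.3% rose and 19.1% fell. With GC-corrected offsets 2 members of the list were higher and 7 lower. Within it, tropomyosin Tpm1 was at 815, 849 and 897 CPM on plastic and 515, 619 and 564 CPM on collagen and fell 1.51-fold (adjusted p = 4.01e-05), while the actin crosslinker Actn4 rose 1.2-fold (adjusted p = 0.000436). The count of members that rose went from 4 to 2 without plastic replicate 1, plastic replicate 2 or collagen replicate 2.

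Promoter sequence was examined for letters recognised by TEAD factors, GGAATG or its reverse complement CATTCC, from 250 bases before to 50 bases after the start site in RefSeq's GRCm38.p6 annotation. Of the 23 members of the YAP and TAZ list, 16 matched an entry and 8 of these held the letters, against 16.6% of 27025 genes with an entry. Among the members named above that fell, Ankrd1, Cyr61 and Amotl2 held the letters and Gadd45b did not, while Ctgf and Nuak2 matched no entry. The letters are a description of the sequence and not a test of binding. The promoters of 3 genes that fell and held the letters are shown with those letters in capitals, 5′ to 3′ on the gene's own strand. Ankrd1 (chr19:36119795-36120094, minus strand) held them at 2 places, Cyr61 (listed as Ccn1, chr3:145649936-145650235, minus strand) at 1, and Edn1, which is not in the list (chr13:42301226-42301525, plus strand), at 1.
Ankrd1: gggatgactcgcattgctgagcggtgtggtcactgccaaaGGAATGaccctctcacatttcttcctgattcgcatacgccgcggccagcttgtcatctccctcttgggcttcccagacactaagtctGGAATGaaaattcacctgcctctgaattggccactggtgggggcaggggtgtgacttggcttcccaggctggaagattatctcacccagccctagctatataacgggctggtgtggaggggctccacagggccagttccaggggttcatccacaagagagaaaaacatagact
Cyr61: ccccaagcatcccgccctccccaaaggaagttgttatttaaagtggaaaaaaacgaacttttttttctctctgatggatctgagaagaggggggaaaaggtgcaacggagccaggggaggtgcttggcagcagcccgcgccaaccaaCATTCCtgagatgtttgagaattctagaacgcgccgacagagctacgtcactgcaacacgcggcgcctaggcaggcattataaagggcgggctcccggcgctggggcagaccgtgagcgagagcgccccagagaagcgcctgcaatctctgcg
Edn1: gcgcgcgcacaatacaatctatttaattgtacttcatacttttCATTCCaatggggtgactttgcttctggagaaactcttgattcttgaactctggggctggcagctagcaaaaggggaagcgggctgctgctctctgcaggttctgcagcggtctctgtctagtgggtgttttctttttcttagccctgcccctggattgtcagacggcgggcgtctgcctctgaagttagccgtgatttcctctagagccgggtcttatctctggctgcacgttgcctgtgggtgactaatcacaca

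**Figure D2:**
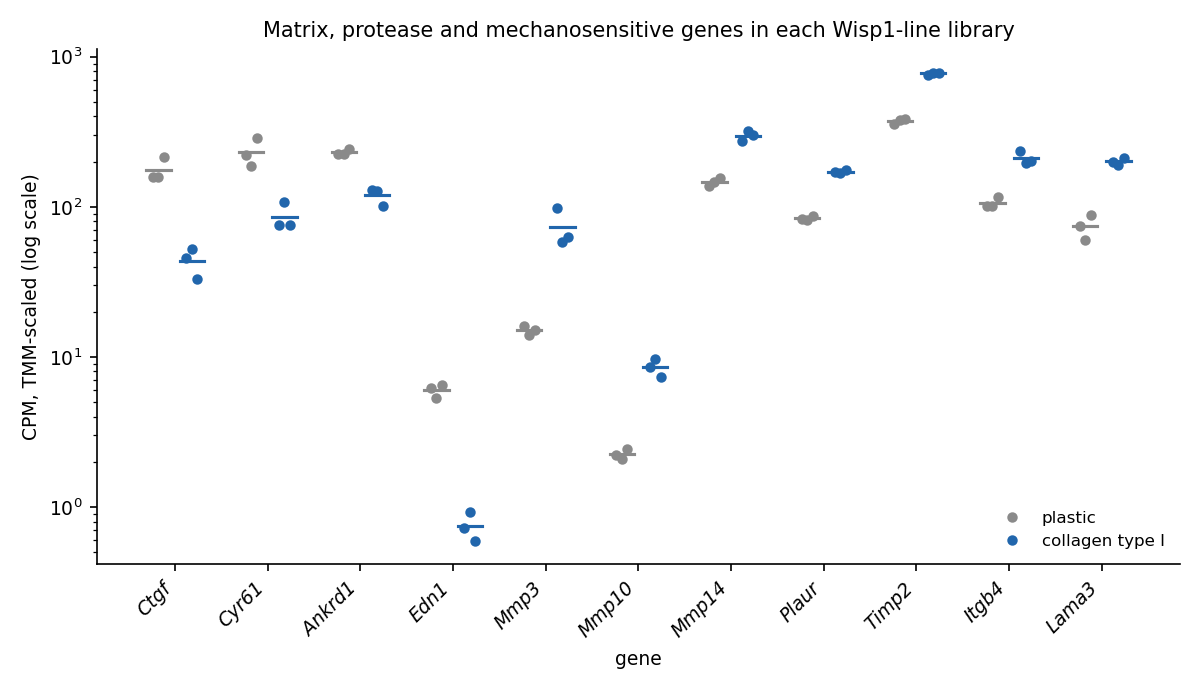
CPM of 11 genes in each of the 6 Wisp1-line libraries on a log axis. Points are libraries and short lines are the means of 3, with plastic and collagen side by side. Ctgf, Cyr61, Ankrd1 and Edn1 lie lower on collagen in every library, and Mmp3, Mmp10, Mmp14, Plaur, Timp2, Itgb4 and Lama3 lie higher in every library.

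Among the receptors for matrix, 11 of 26 tested members of the list of collagen receptors and focal adhesion genes rose and 1 fell, with a median log2 change of 0.16. Itga1, the alpha subunit of the collagen-binding integrin α1β1, was at 1.75, 1.83 and 2.21 CPM on plastic and 8.76, 5.88 and 7.85 CPM on collagen. It rose 3.86-fold (log2 change 1.95 ± 0.17 SE, adjusted p = 2.37e-06), with the groups well apart. Itga2, the alpha subunit of the other main collagen-binding integrin of epithelium, was at 116, 107 and 137 CPM on plastic and 126, 152 and 153 CPM on collagen. The groups overlapped and Itga2 missed the threshold (log2 change 0.26, adjusted p = 0.0731), but it passed without plastic replicate 3 (adjusted p = 0.0193), without collagen replicate 1 (0.0362) and with DESeq2 (0.0391). Ddr1, a receptor tyrosine kinase activated by collagen, was at 43.9, 42.1 and 46.6 CPM on plastic and 65.2, 60.2 and 53.2 CPM on collagen and rose 1.35-fold (log2 change 0.43 ± 0.07 SE, adjusted p = 0.000189). With all 18 libraries the Ddr1 call was not made (adjusted p = 0.0607). Itga8, which pairs with β1 integrin to bind RGD-containing matrix proteins and was not in the list, had the largest rise among the genes named for a mean of 0.5 to 5 CPM. It was at 0.575, 1.26 and 1.13 CPM on plastic and 9.81, 6.88 and 5.94 CPM on collagen and rose 7.58-fold (log2 change 2.92 ± 0.30 SE, adjusted p = 1.48e-05). Without plastic replicate 1 the list held 7 members higher in place of 11, without collagen replicate 3 it held 2 lower in place of 1, and with all 18 libraries it held 3 higher. With GC-corrected offsets 7 were higher and 2 lower.

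The subunits of hemidesmosomes and their laminin ligand were higher on collagen. Itgb4, the β4 integrin subunit that anchors epithelial cells to laminin, was at 101, 102 and 116 CPM on plastic and 234, 195 and 202 CPM on collagen. It rose 1.98-fold (log2 change 0.99 ± 0.07 SE, adjusted p = 4.97e-07), with every collagen library above every plastic library. Its partner Itga6 rose 1.40-fold (adjusted p = 1.98e-06), a call not made with all 18 libraries (adjusted p = 0.166). Lama3, the alpha chain of laminin-332, was at 74.0, 60.2 and 88.1 CPM on plastic and 199.5, 191 and 211 CPM on collagen and rose 2.70-fold (log2 change 1.43 ± 0.16 SE, adjusted p = 7.76e-05). The beta chain Lamb3 rose 1.62-fold (adjusted p = 0.000811). Col17a1, a transmembrane collagen of hemidesmosomes, was at 1.46, 1.58 and 1.40 CPM on plastic and 2.89, 2.82 and 3.01 CPM on collagen and rose 1.97-fold (log2 change 0.98 ± 0.13 SE, adjusted p = 7.8e-05). Of these genes, Itgb4, Itga6, Lamb3 and Col17a1 also belong to the basal and squamous list, in which 6 of 11 tested members rose and 1 fell (median log2 change 0.48), and 0 fell without plastic replicate 1, plastic replicate 3 or collagen replicate 1. With GC-corrected offsets 4 rose and 3 fell, and in the EV line 4 rose and 2 fell.

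Over all matrix proteins, 12 of 28 tested members rose and 6 fell, with a median log2 change of 0.14. Lama5, the alpha chain of the main basement membrane laminin of epithelium, was at 477, 458 and 502 CPM on plastic and 809, 692 and 689.8 CPM on collagen and rose 1.52-fold (log2 change 0.61 ± 0.06 SE, adjusted p = 4.65e-06). Lamc1, the gamma chain of most laminins, rose 1.27-fold (adjusted p = 5.8e-05), and Col18a1, a basement membrane collagen, rose 1.60-fold (adjusted p = 0.000583). The members that fell were of other kinds. Col12a1, a collagen that associates with type I fibrils, was at 9.02, 9.40 and 12.3 CPM on plastic and 3.33, 4.52 and 3.23 CPM on collagen and fell 2.80-fold (log2 change −1.49 ± 0.22 SE, adjusted p = 0.000226). Thbs1, which encodes thrombospondin, a matricellular protein, was at 771, 857 and 1088 CPM on plastic and 497, 508 and 505 CPM on collagen and fell 1.80-fold (adjusted p = 0.00292). Transcripts of collagen type I, the coating itself, were scarce in these cells. Col1a2 was at 0.653, 0.671 and 0.855 CPM on plastic and 0.256, 0.276 and 0.199 CPM on collagen and fell 2.98-fold (adjusted p = 0.000929), and Col1a1 was at 0.967, 0.430 and 0.735 CPM on plastic and 0.281, 0.690 and 0.259 CPM on collagen, with overlapping groups (adjusted p = 0.113). Col1a1 passed the threshold without collagen replicate 2 (adjusted p = 0.017). Beside these, the fibroblast markers summed to 16.7 to 19.0 CPM on plastic and 26.8 to 33.3 CPM on collagen, nearly all of it Pdgfra, which rose from a mean of 16.2 ± 1.38 CPM to 28.6 ± 3.47 CPM (SD, n = 3 each; 1.78-fold, adjusted p = 0.000306), while Lum, Thy1 and Dpt had 0 counts. Their part in the matrix results was not tested.

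Enzymes that shape collagen changed less uniformly. Of 18 tested members of the crosslinking and modifying list, 5 rose and 2 fell, with a median of 0.03 on the log2 scale. The share called was 38.9%, near the 40.4% of all genes, of which 21.3% rose and 19.1% fell. With GC-corrected offsets 4 rose and 4 fell, and with all 18 libraries 2 rose and 1 fell. Bmp1, which removes the C-terminal propeptide of fibrillar procollagens, rose 1.38-fold (adjusted p = 0.000438). Loxl3, a lysyl oxidase, rose 1.86-fold (adjusted p = 0.0026). Serpinh1, the collagen chaperone Hsp47, fell 1.25-fold (adjusted p = 0.00105). Without collagen replicate 1 the members that fell numbered 4 in place of 2.

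Matrix proteases and the plasminogen activator system were among the genes with large rises. Of 24 tested members of the protease and inhibitor list, 12 rose and 3 fell (median log2 change 0.39), and in the EV line 12 rose and 4 fell. Mmp3, stromelysin-1, was at 16.0, 14 and 15.1 CPM on plastic and 98.1, 58.6 and 62.6 CPM on collagen. All collagen libraries were far above all plastic libraries, with collagen replicate 1 highest, and Mmp3 rose 4.87-fold (log2 change 2.28 ± 0.28 SE, adjusted p = 0.000194). Mmp10, stromelysin-2, was at 2.22, 2.09 and 2.43 CPM on plastic and 8.60, 9.68 and 7.38 CPM on collagen and rose 3.78-fold (log2 change 1.92 ± 0.17 SE, adjusted p = 1.86e-06). Mmp14, the membrane-anchored collagenase that cleaves fibrillar collagen, was at 137, 145 and 155 CPM on plastic and 273, 318 and 300.3 CPM on collagen. It rose 2.03-fold (log2 change 1.02 ± 0.08 SE, adjusted p = 7.16e-07), with little spread within either group. Mmp13, a secreted collagenase, was at 1.33, 1.10 and 1.62 CPM on plastic and 10.0, 7.45 and 4.90 CPM on collagen and rose 5.46-fold (adjusted p = 5.21e-05), although with all 18 libraries it just missed the threshold (adjusted p = 0.0503). Mmp9, a gelatinase, was at 75.4, 65.0 and 163 CPM on plastic and 116, 118 and 89.0 CPM on collagen, with overlapping groups and no call (adjusted p = 0.89).

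The plasminogen activator and its receptor rose together with a metalloproteinase inhibitor. Plau, the urokinase plasminogen activator, was at 83.1, 83.9 and 108 CPM on plastic and 199.9, 193 and 173 CPM on collagen and rose 2.06-fold (log2 change 1.04 ± 0.11 SE, adjusted p = 1.7e-05). Plaur, its membrane receptor, was at 83.3, 81.6 and 87.3 CPM on plastic and 169, 169 and 177 CPM on collagen and rose 2.04-fold (log2 change 1.03 ± 0.05 SE, adjusted p = 1.14e-08). Timp2, a metalloproteinase inhibitor that also takes part in activation of pro-MMP2 by MMP14, was at 359, 379 and 382 CPM on plastic and 759.7, 783 and 777 CPM on collagen. It rose 2.07-fold (log2 change 1.05 ± 0.05 SE, adjusted p = 6.99e-09), with groups that lay far apart relative to their spread.

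Enzymes of sterol and fatty acid synthesis were lower on collagen. SREBP factors switch these genes on when membrane sterol is low. Of 27 tested members (28 in all), 23 fell and 0 rose, with a median log2 change of −0.68. Hmgcs1, which makes HMG-CoA, was at 196, 215 and 159 CPM on plastic and 95.2, 73.1 and 77.4 CPM on collagen and fell 2.31-fold (log2 change −1.21 ± 0.13 SE, adjusted p = 3.26e-05). Further along, Idi1, the isopentenyl diphosphate isomerase, fell 2.20-fold (adjusted p = 3.69e-05). Fdps, farnesyl diphosphate synthase, fell 2.15-fold (adjusted p = 0.000499). Sqle, squalene epoxidase, fell 1.74-fold (adjusted p = 4.13e-06).

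Of the later steps, which convert lanosterol to cholesterol, several were also lower. Cyp51, the lanosterol demethylase, was at 158, 174 and 142 CPM on plastic and 81.0, 55.1 and 59.9 CPM on collagen and fell 2.41-fold (log2 change −1.27 ± 0.14 SE, adjusted p = 5.21e-05). Hsd17b7, a sterol ketoreductase that was not in the list, was at 47.9, 46.4 and 43.8 CPM on plastic and 20.6, 20.7 and 21.1 CPM on collagen. It fell 2.21-fold (log2 change −1.15 ± 0.05 SE, adjusted p = 6.99e-09), with almost no spread among the collagen libraries. Nsdhl, a sterol dehydrogenase, fell 1.83-fold (adjusted p = 2.68e-06). Among fatty acid genes, the desaturase Scd2 was at 1633, 1825 and 1635 CPM on plastic and 1188, 783 and 776 CPM on collagen and fell 1.85-fold (adjusted p = 0.00163). Its relative Scd1 fell 2.18-fold (adjusted p = 0.00126), and Acly, which supplies cytosolic acetyl-CoA, fell 1.29-fold (adjusted p = 1.58e-05). The 4 members not called were Fasn (log2 change −0.06, adjusted p = 0.551), Srebf1 (0.15, 0.174), Acss2 and Dhcr7, a reductase of the last steps to cholesterol (log2 change 0.05, adjusted p = 0.602).

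Library order within the groups was shared by most of these genes. Collagen replicate 1 was the highest of the collagen libraries for 25 of the 27, plastic replicate 2 the highest of the plastic libraries for 22, and plastic replicate 3 the lowest for 21. In the EV line 22 fell and 0 rose. The count that fell in the Wisp1 line was 22 to 24 when each library was left out in turn, 23 with GC-corrected offsets and 19 with all 18 libraries. In that last fit Srebf2, which encodes an SREBP factor (log2 change −0.32, adjusted p = 0.000674), was among those no longer called (adjusted p = 0.0621).

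**Figure D3:**
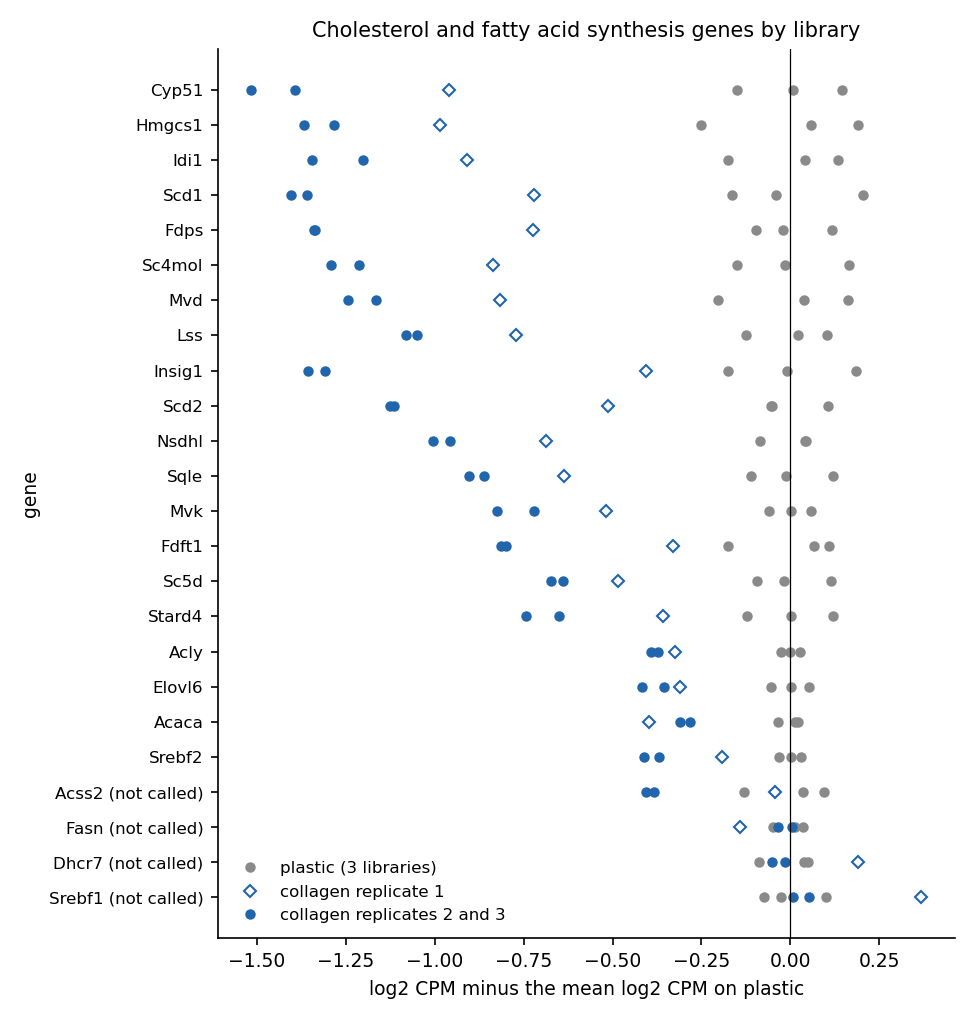
For 24 of the 27 tested sterol and fatty acid genes, the log2 CPM of the 3 collagen libraries (replicate 1 as open diamonds) and 3 plastic libraries (grey) is drawn relative to the plastic mean. For the 20 drawn genes that fell all collagen points lie left of all plastic points, and for most of them replicate 1 lies nearest to 0, while Fasn, Srebf1, Acss2 and Dhcr7 are not called.

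Promoters of the sterol list were searched, in the window given above and on both strands, for the CCAAT box (CCAAT or ATTGG), bound by the factor NF-Y, with which SREBP acts, and for 1 form of the sterol response element, TCACNCCAC. Of the 28 members 18 matched an entry. The CCAAT letters were in 16 of the 18, against 41.1% of 27025 genes, and TCACNCCAC was in 1 of the 18, Hmgcs1, against 1.44% of genes. Whether the CCAAT letters went with the fall within the list could not be judged, since 16 of the 18 held them. Fasn, Srebf1, Acss2 and Dhcr7, which were not called, all held them, while Acaca and Elovl6, which fell, did not. Hmgcs1 (chr13:119690101-119690400, plus strand) held 4 CCAAT boxes, and Cyp51 (chr5:4104648-4104947, minus strand) held 1. Both are shown because they are early and late steps that fell by similar folds, with the matched letters in capitals.
Hmgcs1: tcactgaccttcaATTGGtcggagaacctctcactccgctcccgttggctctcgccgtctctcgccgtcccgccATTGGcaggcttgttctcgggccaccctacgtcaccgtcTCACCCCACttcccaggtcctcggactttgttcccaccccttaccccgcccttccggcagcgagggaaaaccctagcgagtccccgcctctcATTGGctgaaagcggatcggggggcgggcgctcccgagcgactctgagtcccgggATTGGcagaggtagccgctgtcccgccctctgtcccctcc
Cyp51: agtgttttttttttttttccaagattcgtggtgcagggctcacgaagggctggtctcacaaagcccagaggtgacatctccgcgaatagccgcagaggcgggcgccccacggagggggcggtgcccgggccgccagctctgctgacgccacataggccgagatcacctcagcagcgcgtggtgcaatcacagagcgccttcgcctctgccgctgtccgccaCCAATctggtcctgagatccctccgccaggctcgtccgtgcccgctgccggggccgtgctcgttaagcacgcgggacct

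Genes of amino acid supply under ATF4 control also moved 1 way. ATF4 is the transcription factor of the integrated stress response, and its targets import and make amino acids and charge tRNAs. Of 28 tested members, 19 fell and 0 rose (median log2 change −0.41), and in the EV line 26 fell and 0 rose. Psat1, a serine synthesis enzyme, was at 725, 783 and 717 CPM on plastic and 462, 485 and 521 CPM on collagen and fell 1.52-fold (log2 change −0.60 ± 0.07 SE, adjusted p = 1.95e-05). Mthfd2, a mitochondrial folate enzyme, was at 159, 184 and 159.6 CPM on plastic and 90.8, 101 and 106 CPM on collagen and fell 1.69-fold (log2 change −0.75 ± 0.09 SE, adjusted p = 2.53e-05). Asns, asparagine synthetase, was at 261, 302 and 256 CPM on plastic and 169, 173 and 191 CPM on collagen and fell 1.54-fold (adjusted p = 0.000403). In all 3 genes the collagen libraries lay below the plastic libraries. Slc7a11, the cystine transporter, was at 36.4, 47.1 and 26.5 CPM on plastic and 14.8, 13.5 and 18.9 CPM on collagen and fell 2.32-fold (adjusted p = 0.00524). Trib3, a pseudokinase induced by ATF4, was at 33.8, 45.9 and 30.2 CPM on plastic and 17.8, 15.6 and 14.3 CPM on collagen and fell 2.29-fold (adjusted p = 0.00319). Eprs, a tRNA synthetase, fell 1.38-fold (adjusted p = 2.43e-05). Atf4 itself fell 1.37-fold (adjusted p = 0.000208), a call not made with all 18 libraries (adjusted p = 0.109), where 16 members fell. Plastic replicate 2 was the highest plastic library for 27 of the 28 genes.

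Endoplasmic reticulum chaperones and antioxidant genes fell in smaller numbers and with smaller median changes. Of 22 tested members of the unfolded protein response list, 10 fell and 3 rose, with a median log2 change of −0.13. Hspa5 (BiP), the main chaperone of the endoplasmic reticulum, was at 2348, 2250.3 and 2487 CPM on plastic and 1832, 1922 and 1747 CPM on collagen and fell 1.29-fold (adjusted p = 0.000224). Hyou1, its co-chaperone, fell 1.34-fold (adjusted p = 0.000852). Of 27 tested genes of the NRF2, glutathione and pentose phosphate list, 10 fell and 1 rose (median −0.03). Slc7a11, given above, is also in this list and had its largest fall (log2 change −1.22). In the same list the NADPH-producing malic enzyme Me1 fell 1.33-fold (adjusted p = 0.000282), and Sod2, the mitochondrial superoxide dismutase, fell 1.41-fold (adjusted p = 6.83e-06). With all 18 libraries the members that fell numbered 4 and 3. Without plastic replicate 3 the unfolded protein response genes that rose numbered 5, and the NRF2 list genes that rose numbered 3 without collagen replicate 2 and 2 without plastic replicate 1 or plastic replicate 2.

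Most lysosomal genes were higher on collagen. Of 24 tested members of the lysosome and autophagy list, 22 rose and 0 fell, with a median log2 change of 0.47, and in the EV line 19 rose and 0 fell. Grn, the progranulin gene, whose product is processed in lysosomes, was at 99.6, 107 and 112 CPM on plastic and 233, 196 and 192 CPM on collagen and rose 1.95-fold (log2 change 0.96 ± 0.09 SE, adjusted p = 5.79e-06). Gpnmb, a membrane glycoprotein found in lysosomes and melanosomes, was at 8.44, 8.94 and 5.61 CPM on plastic and 39.0, 21.2 and 25.7 CPM on collagen and rose 3.81-fold (log2 change 1.93 ± 0.33 SE, adjusted p = 0.00124). Hexa, the alpha subunit of β-hexosaminidase, rose 1.82-fold (adjusted p = 7.86e-06). The protease Ctsb rose 1.38-fold (adjusted p = 6.05e-06), the aspartic protease Ctsd 1.47-fold (adjusted p = 0.000185), and the lysosomal membrane protein Lamp2 1.43-fold (adjusted p = 4.12e-05). Collagen replicate 1 was the highest collagen library for 19 of the 24. The leukocyte markers, led by Lyz2 and Cd68, had 1 of 8 tested members higher and 0 lower, and their part in the lysosomal result was not tested. Leaving out each library in turn gave 20 to 22 that rose, GC-corrected offsets 19 and all 18 libraries 13.

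Transcripts encoded by the mitochondrial genome also rose. Of 13 tested, 10 rose and 0 fell (median log2 change 0.51), against 11 and 0 in the EV line. mt-Co1, a cytochrome c oxidase subunit, was at 1597, 1523 and 1574 CPM on plastic and 2225, 2553 and 2938 CPM on collagen and rose 1.64-fold (log2 change 0.72 ± 0.08 SE, adjusted p = 3.28e-05). mt-Cytb, the cytochrome b of complex III, was at 679, 642 and 726 CPM on plastic and 937, 1139.6 and 1329.5 CPM on collagen and rose 1.66-fold (log2 change 0.73 ± 0.11 SE, adjusted p = 0.000342). The collagen libraries lay above the plastic libraries for both. For all 13 genes collagen replicate 1 was the lowest of the collagen libraries and collagen replicate 3 the highest.

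The TGF-beta list was split. Of 21 tested members 8 rose and 7 fell, with a median log2 change of 0.24, and 6 rose and 7 fell with GC-corrected offsets. Tgfb1, the main ligand, was at 31.8, 30.2 and 31.9 CPM on plastic and 53.7, 57.5 and 52.8 CPM on collagen and rose 1.75-fold (log2 change 0.80 ± 0.06 SE, adjusted p = 5.71e-07). Tgfb2, another ligand, was at 9.20, 9.85 and 9.99 CPM on plastic and 3.88, 4.22 and 4.07 CPM on collagen and fell 2.39-fold (log2 change −1.26 ± 0.10 SE, adjusted p = 6.15e-07). Both genes had groups that lay far apart. Ltbp1, which holds latent TGF-beta in the matrix, rose 1.42-fold (adjusted p = 7.74e-07). Among targets, Ctgf fell as given above, and Pmepa1, a membrane protein that limits SMAD signalling, fell 1.75-fold (adjusted p = 0.00688). Id2, an inhibitor of helix-loop-helix factors, rose 1.91-fold (adjusted p = 0.000634).

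In the Notch list 5 of 14 tested members rose and 2 fell (median log2 change 0.22). The share called was 50%, beside 40.4% of all genes, of which 21.3% rose and 19.1% fell. Dll1, a Notch ligand, was at 8.96, 8.38 and 9.85 CPM on plastic and 33.6, 28.1 and 34.2 CPM on collagen. It rose 3.51-fold (log2 change 1.81 ± 0.11 SE, adjusted p = 9.35e-08), with every collagen library well above the plastic libraries. Lfng, a glycosyltransferase that modifies Notch receptors, rose 1.5-fold (adjusted p = 2.83e-05). Of 11 tested Wnt targets 3 rose and 1 fell (median 0.07), and the share called, 36.4%, was near that of all genes. Apcdd1, a membrane inhibitor of Wnt signalling, was at 11.3, 11.7 and 11.9 CPM on plastic and 33.1, 24.0 and 29.9 CPM on collagen and rose 2.50-fold (log2 change 1.32 ± 0.10 SE, adjusted p = 7.54e-07). Notum, a secreted enzyme that inactivates Wnt proteins, rose 3.43-fold (adjusted p = 2.32e-05), and Cd44, a hyaluronan receptor, rose 1.32-fold (adjusted p = 6.59e-05), while Myc, a growth-promoting transcription factor, fell 1.22-fold (adjusted p = 0.000145). The Wnt targets that fell numbered 2 without plastic replicate 1 or collagen replicate 3.

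Immediate early and AP-1 genes were more often higher than lower. Of 25 tested members of this list, 11 rose and 5 fell, where 21.3% and 19.1% of all genes did, with a median log2 change of 0.17. With all 18 libraries 5 rose and 2 fell. Fosl1, an AP-1 subunit abundant in invasive carcinoma cells, was at 135, 122 and 129 CPM on plastic and 199, 216 and 227 CPM on collagen and rose 1.66-fold (log2 change 0.73 ± 0.06 SE, adjusted p = 5.77e-07). The ERK feedback inhibitors Spry2 (1.54-fold, adjusted p = 6.54e-06) and Dusp6 (1.46-fold, adjusted p = 0.000593) also rose. Atf3, a stress-inducible factor, fell 2.31-fold (adjusted p = 9.71e-06).

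Genes of DNA replication and mitosis changed by small amounts, the first evenly in direction and the second more often lower. Of 32 tested DNA replication genes 5 rose and 5 fell, and of 27 mitosis genes 3 rose and 11 fell, with median log2 changes of 0.00 and −0.09. The shares called were 31.2% and 51.9%, beside 40.4% of all genes, of which 21.3% rose and 19.1% fell. In the EV line 8 replication genes rose and 2 fell, and 1 mitosis gene rose and 12 fell. Leaving out each library in turn gave 9 to 12 mitosis genes that fell. Bub1, a spindle checkpoint kinase, fell 1.17-fold (adjusted p = 0.000386). With GC-corrected offsets 3 replication genes rose and 6 fell. With all 18 libraries 0 replication genes were called and 1 mitosis gene fell. The replication genes that fell numbered 1 without plastic replicate 1 or plastic replicate 2, 2 without collagen replicate 1 and 3 without plastic replicate 3 or collagen replicate 2. Those that rose numbered 3 without plastic replicate 1, and the mitosis genes that rose numbered 1 without plastic replicate 1, collagen replicate 1 or collagen replicate 2. Of 12 tested genes of growth arrest and the D cyclins, 7 rose and 2 fell (median 0.30). Btg1, an antiproliferative gene, was at 196, 190.2 and 190.4 CPM on plastic and 310.4, 296 and 308 CPM on collagen and rose 1.59-fold (log2 change 0.67 ± 0.05 SE, adjusted p = 2.93e-07). Ccnd2, cyclin D2, was at 238, 231 and 221 CPM on plastic and 122, 147 and 148 CPM on collagen and fell 1.65-fold (log2 change −0.73 ± 0.08 SE, adjusted p = 1.67e-05). The CDK inhibitor Cdkn2c rose 1.38-fold (adjusted p = 7.04e-06).

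Epithelial junction genes were mixed. Of 26 tested, 9 rose and 3 fell, where 21.3% and 19.1% of all genes did, with a median log2 change of 0.12. With GC-corrected offsets 8 rose and 7 fell, and with all 18 libraries 3 rose and 1 fell. Pkp3, a desmosomal plakophilin, rose 1.53-fold (adjusted p = 2.16e-06). Jup, plakoglobin, rose 1.38-fold (adjusted p = 0.000242), and Dsc2, a desmosomal cadherin, rose 1.47-fold (adjusted p = 0.000306). Tjp1 (ZO-1), a scaffold of tight junctions, fell 1.26-fold (adjusted p = 3.77e-05). Krt8, a keratin of simple epithelium, was at 994, 999 and 1116 CPM on plastic and 1587, 1304 and 1285 CPM on collagen. It rose 1.34-fold (adjusted p = 0.000689), a call not made with all 18 libraries (adjusted p = 0.252). Without collagen replicate 1 the members that fell numbered 5 in place of 3. In the mesenchymal list 3 of 10 tested members rose and 2 fell, with 1 that fell without plastic replicate 1, plastic replicate 3, collagen replicate 1 or collagen replicate 3. With all 18 libraries 1 mesenchymal gene rose and 1 fell. The luminal list had 4 of 11 tested members higher and 1 lower, and the replication-dependent histones 1 of 10 higher and 0 lower, with 0 higher without plastic replicate 2, plastic replicate 3 or collagen replicate 2. The shares called in the mesenchymal, luminal and histone lists were 50%, 45.5% and 10%, beside 40.4% of all genes. S100a4, a calcium-binding protein linked to motility, rose 1.53-fold (adjusted p = 0.00303), and Zeb2, a repressor of epithelial genes, fell 1.23-fold (adjusted p = 0.000715).

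Immune, hypoxia and p53 lists gave small or mixed values. The interferon list had 3 of 26 tested members higher and 4 lower (median log2 change −0.03), and the NF-kB, chemokine and cytokine list 3 of 22 higher and 4 lower (−0.14). The shares called were 26.9% and 31.8%, below the 40.4% of all genes, of which 21.3% rose and 19.1% fell. Icam1, a leukocyte adhesion receptor, fell 2.84-fold (adjusted p = 1.4e-05). Ccl2, a monocyte chemokine, fell 4.25-fold (adjusted p = 0.000423), with 52, 46 and 35 counts on plastic and 19, 14 and 11 on collagen. Of 17 tested genes of class I antigen presentation, 7 rose and 2 fell (median 0.22), against 4 and 1 with GC-corrected offsets, 2 and 1 with all 18 libraries, and 2 and 3 in the EV line. Counts in these lists moved with single libraries: the interferon genes that rose numbered 1 without plastic replicate 1 or plastic replicate 3 and 6 without collagen replicate 3, those that fell numbered 1 without plastic replicate 2 and 2 without collagen replicate 3, the NF-kB genes that fell numbered 7 without collagen replicate 2, and the antigen presentation genes that fell ranged from 0 without plastic replicate 3 to 4 without collagen replicate 2, with 1 when plastic replicate 1, collagen replicate 1 or collagen replicate 3 was left out. The hypoxia and glycolysis list had 2 of 28 tested members higher and 5 lower (median −0.01), with 9 lower and 1 higher with GC-corrected offsets, and 11 lower without collagen replicate 1, 3 lower without plastic replicate 2, plastic replicate 3 or collagen replicate 3, and 1 higher without plastic replicate 1, plastic replicate 2, plastic replicate 3 or collagen replicate 1. Within it Pfkfb3, which raises the glycolytic activator fructose 2,6-bisphosphate, fell 1.34-fold (adjusted p = 0.0012). Of 18 tested p53 targets 3 rose and 5 fell (median −0.11), and 5 rose without collagen replicate 3. The shares called in the antigen presentation, hypoxia and p53 lists were 52.9%, 25% and 44.4%. The kinase gene Plk2 fell 2.03-fold (adjusted p = 0.000852) and the death receptor gene Fas fell 1.66-fold (adjusted p = 0.000196).

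**Figure D4:**
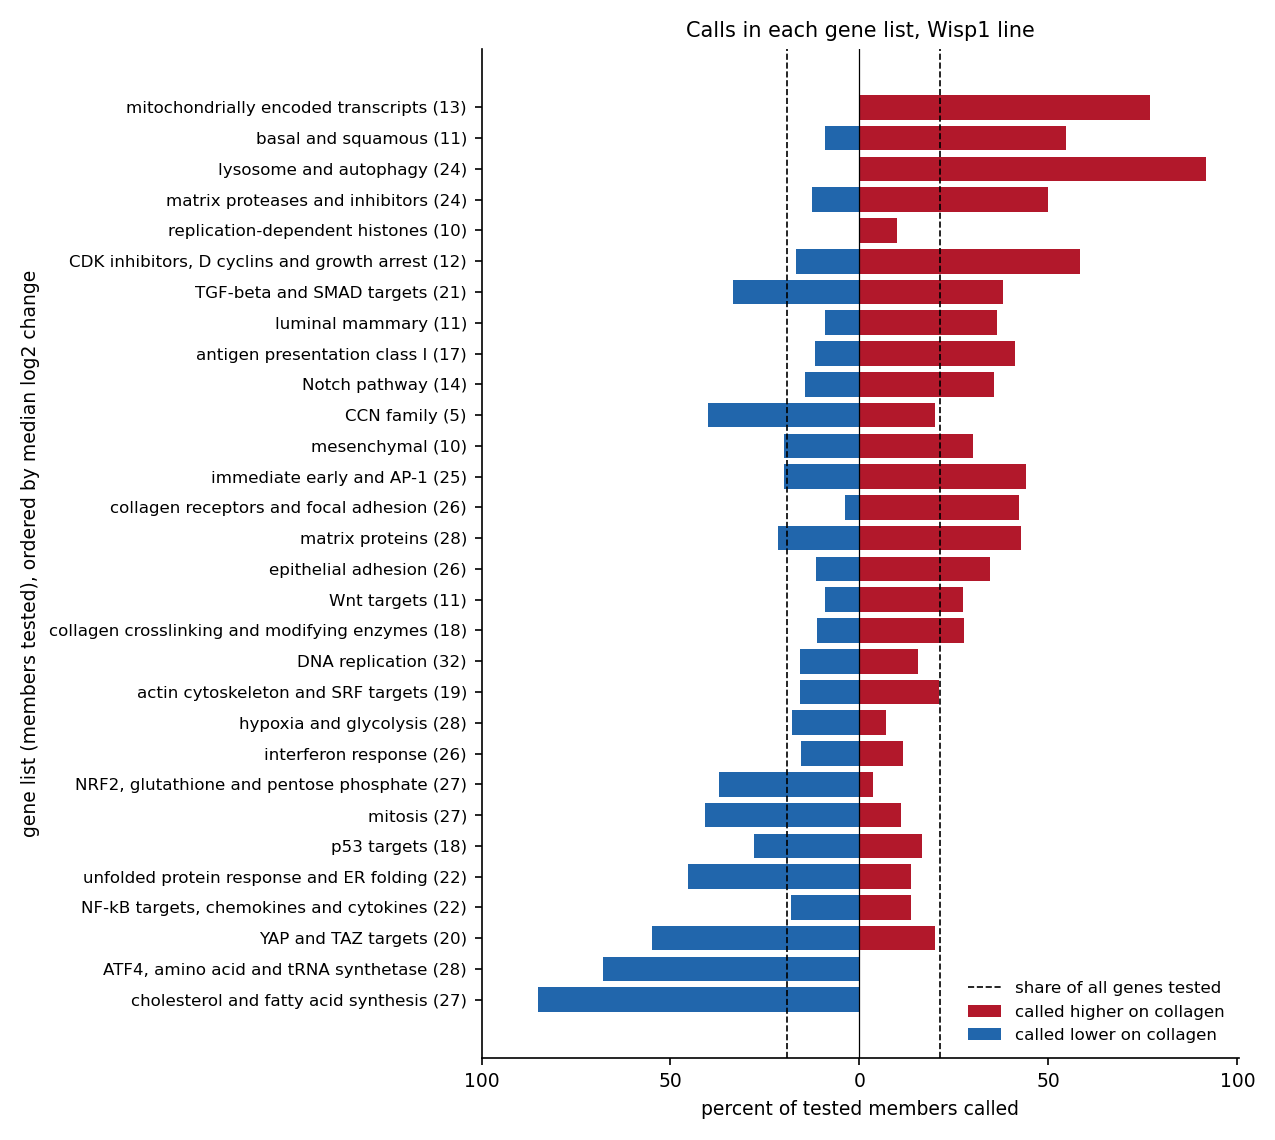
For each of the 30 gene lists, bars give the percentage of tested members called higher (red, to the right) and lower (blue, to the left) on collagen, ordered by the list's median log2 change. Dashed lines mark the shares of all genes, 21.3% higher and 19.1% lower. The sterol and ATF4 lists hold only lower calls, and the lysosomal and mitochondrial lists only higher calls, as does the histone list with 1.

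Outside these lists, several of the largest and most regular changes were in single genes. Fam102a had the smallest p of all genes tested. It was at 3.87, 3.44 and 3.83 CPM on plastic and 16.9, 17.5 and 18.9 CPM on collagen and rose 4.77-fold (log2 change 2.25 ± 0.08 SE, adjusted p = 2.34e-09). Nptx1, a secreted pentraxin best known from neurons, was at 58.9, 51.9 and 53.7 CPM on plastic and 301, 203 and 277 CPM on collagen and rose 4.75-fold (log2 change 2.25 ± 0.16 SE, adjusted p = 4.13e-06). Slc27a1, a fatty acid transport protein, was at 25.7, 26.4 and 27.0 CPM on plastic and 118, 88.6 and 101 CPM on collagen and rose 3.89-fold (log2 change 1.96 ± 0.13 SE, adjusted p = 6.48e-07). In each of these 3 genes the lowest collagen library lay far above the highest plastic library. Rab31, a small GTPase of vesicle traffic, was at 144, 146 and 149 CPM on plastic and 301, 314 and 309 CPM on collagen and rose 2.10-fold (log2 change 1.07 ± 0.04 SE, adjusted p = 2.56e-09). St3gal4, a sialyltransferase, was at 90.4, 93.7 and 87.0 CPM on plastic and 219, 248 and 272 CPM on collagen and rose 2.73-fold (log2 change 1.45 ± 0.06 SE, adjusted p = 6.99e-09). Xdh, xanthine dehydrogenase, was at 7.79, 8.80 and 7 CPM on plastic and 48.7, 26.9 and 28.9 CPM on collagen and rose 4.48-fold (adjusted p = 0.00171). Ptges, a prostaglandin E synthase, was at 7.03, 7.17 and 8.09 CPM on plastic and 35.6, 21.7 and 20.3 CPM on collagen and rose 3.49-fold (adjusted p = 0.000403). For Xdh and Ptges collagen replicate 1 was the highest library. Ctsw, a papain-like cathepsin, was at 10.7, 9.34 and 19.0 CPM on plastic and 2.48, 3.47 and 1.93 CPM on collagen and fell 5.03-fold (log2 change −2.33 ± 0.38 SE, adjusted p = 0.000906).

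Scarce transcripts gave larger folds on few reads. Enpp2, the secreted enzyme autotaxin, had 23, 20 and 27 counts on plastic and 412, 146 and 133 on collagen and rose 6.78-fold (adjusted p = 7.19e-05). Selp, P-selectin, had 61, 43 and 64 counts on plastic and 757, 298 and 423 on collagen and rose 6.23-fold (adjusted p = 7.01e-06). Palm3, a paralemmin, had 32, 50 and 53 counts on plastic and 10, 8 and 5 on collagen and fell 7.97-fold (adjusted p = 3.22e-05). In all 3 genes the CPM of the groups did not overlap.

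The substrate effect was then compared with that of the EV line, which shares no library with the Wisp1 line but shares the split of sample series between substrates and the spread estimate of the fit. In the EV line 5095 genes (36.5%) were called, 2678 (19.2%) higher and 2417 (17.3%) lower. Both lines called 4085 genes, 4084 of them in the same direction, which is 72.4% of the Wisp1-line calls and 80.2% of the EV calls. Of the 400 genes that changed at least 2-fold in the Wisp1 line, 297 were called in the same direction in the EV line and 390 had the same sign. Another 1556 genes were called in the Wisp1 line and not in the EV line, and 1498 of these had the same sign there. Across genes the log2 changes of the lines correlated at r = 0.809 over 13953 genes and 0.927 over the 10316 with a mean of at least 5 CPM, as a description, since genes are not independent replicates.

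Values of genes with large changes are set side by side for both lines. Ctgf changed by −2.02 on the log2 scale in the Wisp1 line and −2.14 in the EV line, and Edn1 by −3.01 and −2.87. The values for Mmp3 were 2.28 and 2.22, for Itga8 2.92 and 2.43, and for Cyp51 −1.27 and −1.28. Other genes lay further apart, with 2.34 and 1.62 for Nov, and 2.16 and 1.40 for Xdh. The test of the difference itself called 0 genes (0%) with edgeR's quasi-likelihood test, with 410 at an unadjusted p under 0.05, where 5% of the genes tested would be 698. Wisp1 had the smallest adjusted p, 0.431, with log2 changes of 0.21 in the Wisp1 line and −1.72 in the EV line, a difference of 1.94 ± 0.27 (SE). Wisp1 was the 1 gene called with DESeq2 (adjusted p = 2.68e-06) and the 1 gene called with limma-voom (adjusted p = 0.0259). It was also the 1 gene called by edgeR without EV plastic replicate 1 (adjusted p = 0.00556) or without EV plastic replicate 3 (adjusted p = 0.000149). In the EV line, which carries no Wisp1 vector, Wisp1 fell on collagen (adjusted p = 0.000131), from a mean of 50.7 to 15.3 CPM. The Wisp1-line means, 939 CPM on plastic and 1088 CPM on collagen, do not separate vector from endogenous reads. The difference thus cannot show whether the endogenous gene responded otherwise in the Wisp1 line, which was not tested.

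**Figure D5:**
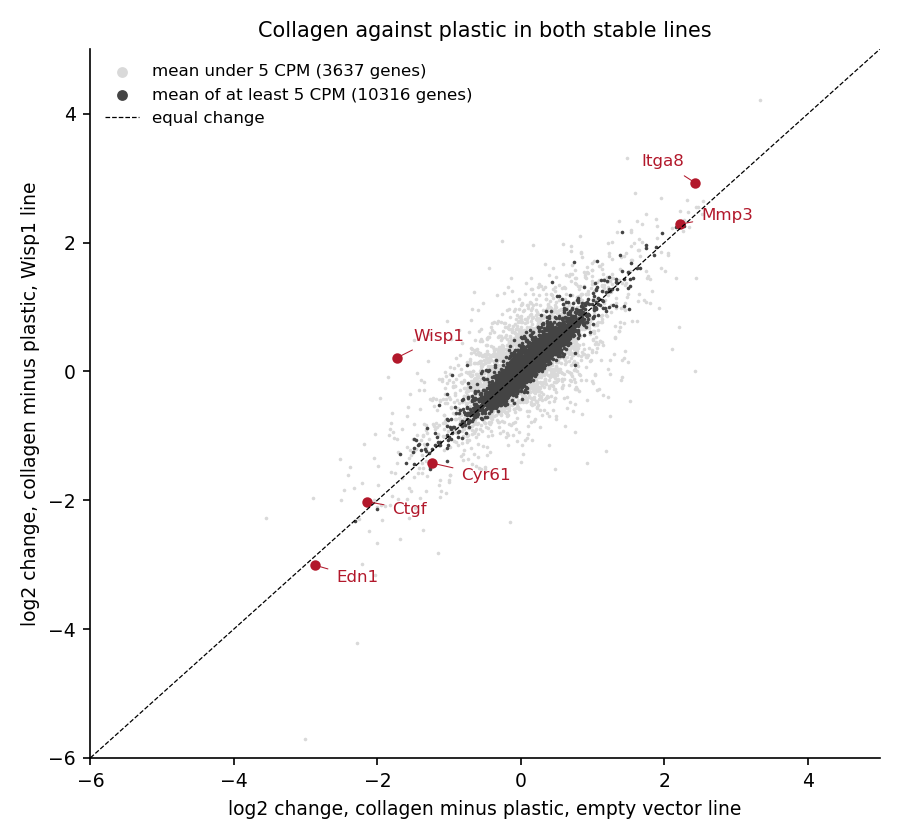
Each point is a gene, with its log2 change on collagen in the EV line on the x axis and in the Wisp1 line on the y axis. Dark points are the 10316 genes with a mean of at least 5 CPM over the 12 libraries and the dashed line marks equal change. Most dark points lie along the line, and Wisp1, whose vector and endogenous reads were not separable, lies apart at −1.72 and 0.21.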

How the data were processed

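Poly(A)-enriched RNA from 12 cultures of the stable lines was used, from a column kit and a stranded mRNA library kit, per the labels. The authors deposited unnormalized read counts for each gene symbol. Build mm9 and the tools HTSeq, STAR, BWA, CASAVA, limma and R 3.2.4 are named, without their roles, in the submitters' processing notes. Which annotation was counted, and on which strand, is not given in the sources used here, so values of overlapping genes and close paralogs are uncertain. Each file listed 34591 symbols, and summary entries that name no gene (for example 10.2 to 10.8% of reads outside genes in the Wisp1 line) were left out.

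Genes were filtered with filterByExpr, scaled by TMM and tested with edgeR 4.0.16 (robust quasi-likelihood F test, R 4.3.3) in 1 fit of the 12 libraries with 4 group means, from which the substrate effect in either line and the difference of these effects were taken. Calls were made at a Benjamini-Hochberg adjusted p under 0.05. Each standard error was obtained by dividing the log2 change by the square root of its F value. Alternatives used RLE scaling, DESeq2 1.42.0, limma-voom (limma 3.58.1), other filters, other sets of libraries, a replicate block, thinned counts, GC-corrected offsets and leaving out each library. In simulated data of 13953 genes, sets of 50 genes with a mean count over 50 were changed 1.2, 1.5, 2 or 4-fold. Of these, 38, 92, 100 and 100% were recovered, and 6.78% of calls were false. Far fewer genes changed in the simulation than were called in the data, which affects the adjusted p.

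Named genes were the CCN family, the 10 largest rises and falls (mean of at least 5 CPM, groups not overlapping), the 5 smallest p in each direction, up to 3 called members of each of 30 lists plus 1 of the other direction, and low genes (mean 0.5 to 5 CPM). Some further genes were picked once their values had been seen. The libraries and lists were chosen with earlier results of these data known. Values of some genes are not reported here. Promoter sequences come from RefSeq's GRCm38.p6 table. The counts' own build differs, so no coordinates of it are given.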

Additional observations from a re-analysis of the deposited data

How the results depend on the processing

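The number of genes called in the Wisp1 line stayed within 1.5 times of 5641 under the other settings run, except with all 18 libraries, where 2071 genes were called, and in the EV line 1629. The cause was not tested. Leaving out 1 library in turn gave 4450 to 5443 genes in the Wisp1 line, 3849 to 4598 in the EV line and 0 to 1 for the difference between lines. The difference called 1 gene with DESeq2 and 1 with limma-voom, Wisp1 in both, against 0 with edgeR. The cause was not tested.

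The replicate numbers of the labels did not pair the Wisp1-line libraries: the deviations of same-numbered libraries correlated at −0.12, −0.28 and −0.11. In the EV line these values were mixed, at 0.23, −0.25 and 0.43. A fit with the replicate block called 6238 genes in the Wisp1 line, 5690 in the EV line and 0 for the difference.

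Over 190 named genes, 3028 values were recomputed under alternatives: 2931 kept direction and side of the threshold, 86 lost the call, 11 gained one and 0 reversed. At least 1 alternative ended the call of 53 genes. Of simulated 1.2-fold changes 38% were recovered, but far fewer genes changed there than were called here, so this share need not hold for these data. A small change may still be missed at these depths and this number of replicates.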
